A study of Mus musculus with 27 samples.

Results

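The 29 red blood cell genes described here are those of a list of 30 that a probe set with a single gene symbol measured, out of 19935 genes in the table. The rule that chose them used their known role in red cells, with globins left out, and no measured value, but the list was drawn up with earlier results of these data known. The chaperone gene Ahsp was listed too and was not matched, so it has no value here. The 29 fall into 9 regulators of red cell formation, 3 genes of the erythropoietin and iron supply, 7 enzymes of heme synthesis, 8 membrane or blood group proteins and 2 red cell enzymes. Each was measured by 1 probe set.

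RNA of whole mouse hearts dissected at E11.5 carried a biotin label and was read on 27 Affymetrix arrays. Per the labels, all hearts came from a C57Bl/6/BLKSW mix and fall into 6 genotypes. These were wild type (n = 6), Brg1+/- (n = 6), Tbx5+/- (n = 5), Nkx2-5+/- (n = 4), Tbx5+/- Brg1 +/- (n = 3) and Nkx2-5+/- Brg1+/- (n = 3). Smarca4 codes for Brg1, which drives a chromatin remodelling complex with energy from ATP. Tbx5 and Nkx2-5 code for factors that switch on heart genes in the embryo. By its label each mutant group lacks 1 copy of each gene named in the genotype, and the labels name no Cre driver. The labels do not say whether an array holds 1 heart or a pool, or whether the arrays are separate embryos, so every p-value measures only the spread between arrays. The study asked whether loss of a Brg1 copy alters the effect of losing a copy of either factor.

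A red cell is built by a small set of transcription factors, with Gata1, Klf1 and Tal1 at its centre, that switch on genes for heme, for a flexible membrane skeleton and for iron uptake. Erythropoietin acts through its receptor Epor to keep these cells alive, and heme is made by a chain of enzymes that starts with Alas2 in red cells and ends with Fech. At this stage of mouse development the circulating blood consists mainly of nucleated primitive red cells from the yolk sac, while the liver starts to make definitive red cells. In RNA of a whole heart, fewer red cells and less RNA per red cell cannot be told apart.

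Start-site sequences are shown because Gata1 and Klf1 act through short motifs. Whether such motifs bear on the shared movement of the members across the arrays was not tested. RefSeq windows of assembly GRCm38.p6 run from 250 bases before to 50 bases after an annotated start. They were used for 23 members and comprised 29 windows. No window was found for Ank1, Slc4a1, Lmo2, Nfe2 and Slc25a37. Fech was left out by its chromosome, a filter applied to the members alone. A GATA motif (the letters GATA with A or T just before and A or G just after, on either strand) was found in 16 of the 29 windows, which is 55.2%, against 29.8% of all 32851 windows. A CACC-type motif (CCNCNCCC, on either strand), of the kind that Klf1 binds, was found in 62.1% of the member windows against 49.5% of all windows. Both motifs together were found in 24.1% of the member windows and in 10.2% of all windows. These shares describe letters in a window and not bound sites. The 140 bases before the start are printed 5′ to 3′ along the gene, with GATA and CACC motifs in capitals.
Klf1, chr8:84901842-84901981, plus strand: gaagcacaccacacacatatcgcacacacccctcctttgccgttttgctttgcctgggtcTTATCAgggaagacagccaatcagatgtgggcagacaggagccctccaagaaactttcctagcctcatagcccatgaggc
Epor, chr9:21963577-21963716, minus strand: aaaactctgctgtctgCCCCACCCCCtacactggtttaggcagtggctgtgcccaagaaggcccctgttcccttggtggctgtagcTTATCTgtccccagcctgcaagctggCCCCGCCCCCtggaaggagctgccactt
Alas2, chrX:150547277-150547416, plus strand: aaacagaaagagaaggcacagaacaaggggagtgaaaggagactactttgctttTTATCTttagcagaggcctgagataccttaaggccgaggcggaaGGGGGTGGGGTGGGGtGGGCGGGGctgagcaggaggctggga
Cpox, chr16:58670068-58670207, plus strand: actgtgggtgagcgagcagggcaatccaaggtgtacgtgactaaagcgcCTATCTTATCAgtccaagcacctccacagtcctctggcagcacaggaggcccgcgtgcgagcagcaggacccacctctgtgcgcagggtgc
Rhag, chr17:40811009-40811148, plus strand: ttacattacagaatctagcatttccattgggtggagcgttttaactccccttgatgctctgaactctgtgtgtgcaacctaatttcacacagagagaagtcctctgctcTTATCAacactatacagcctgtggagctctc
Kel, chr6:41704326-41704465, minus strand: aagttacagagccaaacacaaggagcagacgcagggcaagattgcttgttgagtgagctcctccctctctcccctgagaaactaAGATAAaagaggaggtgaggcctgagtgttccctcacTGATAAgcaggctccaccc
Hemgn, chr4:46404184-46404323, minus strand: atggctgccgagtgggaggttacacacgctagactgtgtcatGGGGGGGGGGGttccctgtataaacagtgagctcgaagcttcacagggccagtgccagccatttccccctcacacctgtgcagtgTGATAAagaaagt
The GATA letters read as TATC where the motif lies on the opposite strand, as in Klf1, Epor, Alas2, Cpox and Rhag. Epor, Alas2 and Hemgn carried both kinds of motif before the start, and Cpox carried a pair of overlapping GATA motifs. Kel held a GATA motif at each of 2 places. In Hemgn the CACC letters were a run of G. Of the 6 members with 2 annotated starts, Tal1, Pklr and Uros had a GATA motif at one start and not at the other, and Pklr and Uros are printed as examples.
Pklr upstream start, chr3:89136002-89136141, plus strand: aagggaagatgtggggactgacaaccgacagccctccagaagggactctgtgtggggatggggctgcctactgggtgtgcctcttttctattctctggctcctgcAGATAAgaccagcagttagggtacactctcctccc
Pklr downstream start, chr3:89136483-89136622, plus strand: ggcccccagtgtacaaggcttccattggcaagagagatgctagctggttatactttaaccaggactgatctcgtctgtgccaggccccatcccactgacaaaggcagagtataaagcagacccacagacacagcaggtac
Uros upstream start, chr7:133709296-133709435, minus strand: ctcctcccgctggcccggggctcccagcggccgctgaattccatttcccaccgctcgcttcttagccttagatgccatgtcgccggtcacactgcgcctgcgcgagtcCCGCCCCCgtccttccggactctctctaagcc
Uros downstream start, chr7:133702501-133702640, minus strand: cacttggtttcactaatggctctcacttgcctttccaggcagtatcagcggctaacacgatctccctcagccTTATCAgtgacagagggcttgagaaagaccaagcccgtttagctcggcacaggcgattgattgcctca
In Pklr, which encodes the red cell and liver pyruvate kinase, the GATA motif was before the upstream start, the start of the red cell form. In Uros, a heme synthesis enzyme, the GATA motif was before the downstream start and not in the window of the upstream start. The arrays measured each of these genes by 1 probe set, so use of either start was not tested.

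Across the 27 arrays the 29 genes rose and fell together. After each group's mean was removed, the correlation over arrays between any pair of members ran from 0.42, for Pklr and Bpgm, to 0.99, for Alas2 and Slc4a1, with a median of 0.90 over 406 pairs. A single axis held 89.1% of the members' variation within groups and the second axis held 6.08%. All members share the same 27 libraries, so the 29 values of a comparison are close to repeats of a common measurement and are not 29 separate observations. Sptb, the spectrin chain of the red cell membrane skeleton, followed the mean of the other members most closely (r = 0.99, 27 arrays). Bpgm, which makes the regulator of oxygen release 2,3-bisphosphoglycerate, followed it least (r = 0.82). Hemgn, a nuclear protein of blood cells, had the widest range over the arrays, at log2 4.59, and Lmo2, an adaptor in the Tal1 complex, had the narrowest, at log2 1.20.

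The average of the 29 log2 signals was highest in Nkx2-5+/- replicates 2, 1 and 4, at 10.91, 10.76 and 10.67. Brg1+/- replicate 2 came next, at 10.65. The lowest was Nkx2-5+/- Brg1+/- replicate 2, at 8.15, which held the lowest of all 27 values for 21 of the 29 genes. The group means ran from 8.93 ± 0.82 (SD, n = 3) in Nkx2-5+/- Brg1+/- through 9.08 ± 0.58 (SD, n = 6) in wild type, 9.13 ± 0.48 (SD, n = 5) in Tbx5+/- and 9.31 ± 0.73 (SD, n = 3) in Tbx5+/- Brg1 +/- to 9.94 ± 0.63 (SD, n = 6) in Brg1+/- and 10.32 ± 0.92 (SD, n = 4) in Nkx2-5+/-. The 4 lower groups lay within 1 SD of each other. Wild-type arrays alone spanned 8.51 to 9.94, which is wider than the distance between any 2 group means.

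2 arrays went against their labels in Smarca4. Both are called by their labels below, and values without them are given where they move a result. Smarca4 lay between 9.16 and 9.64 in the arrays labelled with a Brg1 deletion, except for the library labelled Tbx5+/- Brg1 +/- replicate 3, at 10.01. It lay between 9.89 and 10.23 in the arrays labelled without that deletion, except for the library labelled Nkx2-5+/- replicate 3, at 9.57. The latter library also had an Nkx2-5 signal of 9.40, against 8.48 to 8.63 in the other Nkx2-5+/- arrays and 9.17 to 9.96 in wild type. Its average over the red blood cell genes was 8.96, the lowest of its group. In Nkx2-5+/- Brg1+/- replicates 1 to 3 the Nkx2-5 signal was 9.03, 9.24 and 8.85, so replicate 2 lay inside the wild-type range. The lowest Brg1+/- value was 8.99, so Nkx2-5 did not fully separate the Nkx2-5+/- Brg1+/- group from arrays labelled without its deletion. The library labelled Tbx5+/- Brg1 +/- replicate 3 had the highest average of its group, at 10.15, against 8.98 and 8.80. The Tbx5 signal did not separate the arrays labelled with a Tbx5 deletion from wild type. It was 8.51 to 8.90 in Tbx5+/- and 8.50 to 8.70 in Tbx5+/- Brg1 +/-, against a median of 8.53 and a highest of 8.96 in wild type, and the group means of 8.80 and 8.61 were above that of wild type, at 8.57. Where the probes lie relative to the deleted part is not given in the sources used here, so both Tbx5 groups rest on their labels.

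**Figure D1:**
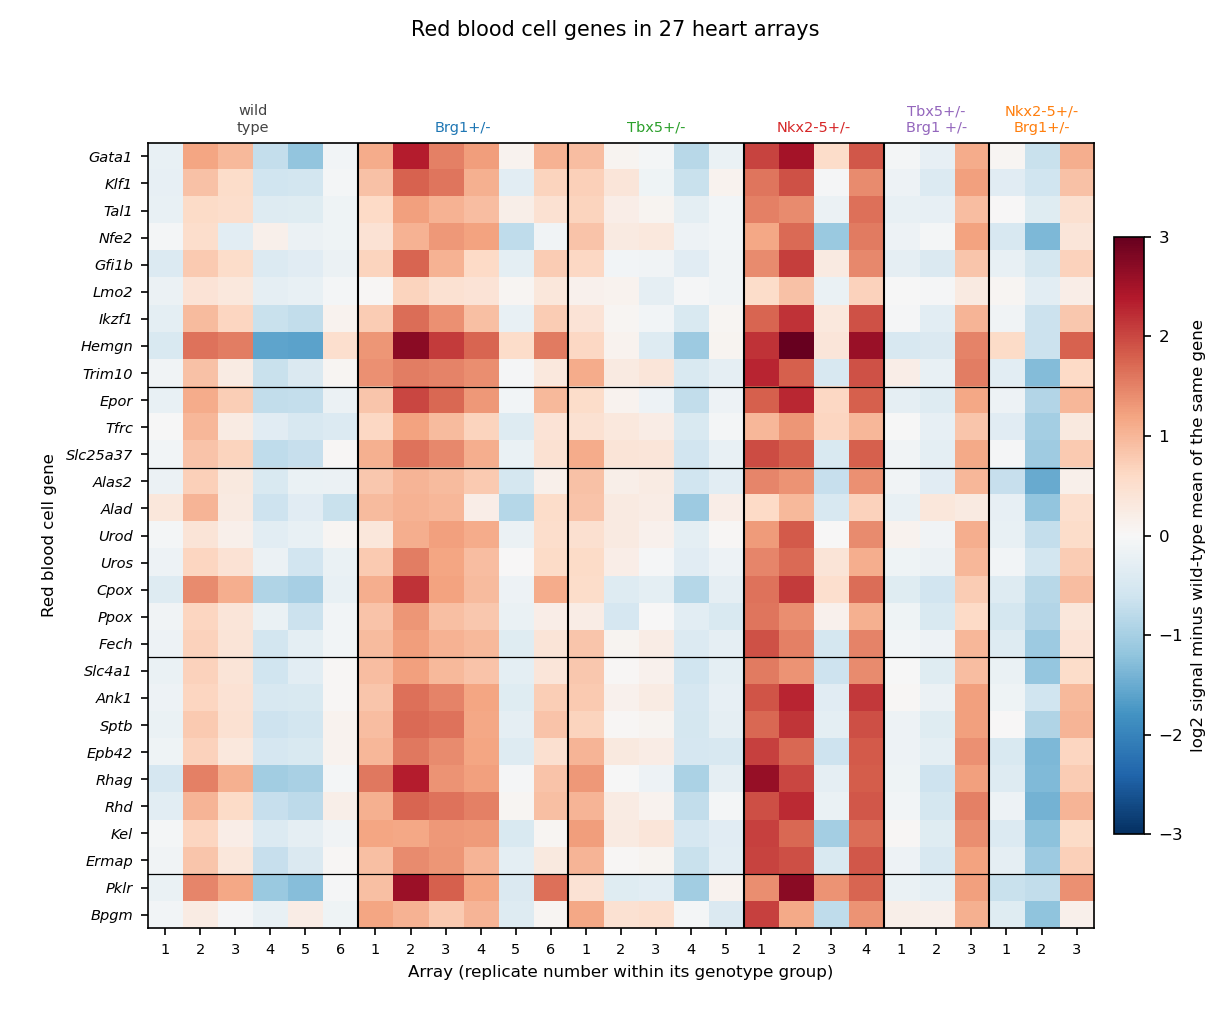
Heat map of the log2 signal of each of the 29 red blood cell genes (rows, in order of role) in each of the 27 arrays (columns, numbered by replicate within genotype), as the difference from that gene's wild-type mean. Columns are nearly uniform in colour from top to bottom, with Nkx2-5+/- replicates 1, 2 and 4 red and Nkx2-5+/- Brg1+/- replicate 2 the bluest.

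In Nkx2-5+/- hearts 14 of the 29 genes rose against wild type, and none of the 29 fell. They were the regulators Gata1, Tal1, Gfi1b, Ikzf1 and Hemgn, the receptors Epor and Tfrc, the heme enzymes Uros, Urod, Cpox and Ppox, the membrane skeleton genes Ank1 and Sptb, and Pklr. The other 15, which did not pass, included Klf1, the heme enzymes Alas2, Alad and Fech and the blood group genes Rhag, Rhd, Kel and Ermap. The 14 are 48.3% of the members, against 2.72% of all 19935 genes called higher and 5.16% called lower in the same comparison. The median log2 difference of the 29 genes was 1.26, against -0.01 over all genes, and the 29 estimates lay above 0. Calls are at an adjusted p under 0.05 from limma with Benjamini-Hochberg adjustment over all genes.

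Among the regulators, Gata1 (probe set 10603417), the founding GATA factor of red cells, read 9.76, 10.23, 8.27 and 9.60 in Nkx2-5+/- replicates 1 to 4. In wild type Gata1 had a lowest value of 6.54, a median of 7.58 and a highest of 8.92. Replicates 1, 2 and 4 lay above every wild-type array and replicate 3 lay within the wild-type range. The log2 difference of Gata1 was 1.74 (SE 0.45, 3.34-fold, limma adjusted p = 0.0205). Hemgn (probe set 10512757) read 10.47, 11.28, 8.65 and 10.89 in Nkx2-5+/- and 6.70, 8.32 and 9.91 as lowest, median and highest of wild type. It had the largest difference of the members, at 2.03 (SE 0.61, 4.07-fold, limma adjusted p = 0.0390). Ikzf1, the Ikaros zinc finger factor of blood cells, had the smallest adjusted p, with a difference of 1.53 (SE 0.37, limma adjusted p = 0.0160). Its 4 values were 8.51, 8.93, 7.08 and 8.67 against a wild-type range of 6.02 to 7.72, so that the groups overlapped only at replicate 3. Tal1, the helix-loop-helix partner of Gata1, was 1.10 higher (SE 0.30), and Gfi1b, a repressor needed for red cells and platelets, was 1.30 higher (SE 0.34). The other 4 regulators did not pass. Klf1, which switches on the adult globin and many membrane genes, differed by 1.22 (SE 0.41, limma adjusted p = 0.0618), Trim10 by 1.38, Lmo2 by 0.48 and Nfe2, a factor of the globin locus, by 0.83.

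Of the genes for growth signal and iron, Epor (probe set 10591660), the erythropoietin receptor, read 9.68, 10.14, 8.50 and 9.67 in Nkx2-5+/-. Its wild-type values had a lowest of 7.13, a median of 7.68 and a highest of 8.98. Epor rose by log2 1.62 (SE 0.42, 3.08-fold, limma adjusted p = 0.0192), with the 3 high arrays above all of wild type. Tfrc, the transferrin receptor that brings iron into the cell, rose by 0.98 (SE 0.29). Tfrc was 11.32, 11.65, 10.98 and 11.34 in Nkx2-5+/- and stayed high in replicate 3, against a wild-type median of 10.16 and highest of 11.34. Slc25a37, the mitochondrial iron importer mitoferrin, read 12.05, 11.89, 9.63 and 11.88. Its difference was 1.27 (SE 0.45) and did not pass (limma adjusted p = 0.0783).

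Of the enzymes of heme synthesis 7 are members. The called ones lie in the middle of the chain: Uros rose by 1.15 (SE 0.30), Urod by 1.13 (SE 0.30), Cpox by 1.48 (SE 0.45) and Ppox by 1.05 (SE 0.30). Cpox (probe set 10436392), coproporphyrinogen oxidase, read 11.28, 11.75, 10.14 and 11.31 in Nkx2-5+/-, and 8.66, 9.34 and 11.06 as lowest, median and highest of wild type. Alas2, the red cell form of the enzyme that starts the chain, read 12.75, 12.64, 10.60 and 12.66, against a wild-type lowest of 10.82 and median of 11.12. Replicate 3 was thus below every wild-type array in Alas2 while the other 3 were above them all. Alas2 differed by 0.87 (SE 0.39) and did not pass (limma adjusted p = 0.171). Alad, the second enzyme, had the smallest difference of all members, at 0.44 (SE 0.39), with the groups overlapping throughout. Fech, which inserts the iron, differed by 1.09 (SE 0.38, limma adjusted p = 0.0742).

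Of the 8 membrane and blood group genes, Ank1 and Sptb passed. Ank1, the ankyrin that ties the spectrin network to the membrane, read 10.77, 11.18, 8.53 and 11.02 in Nkx2-5+/-. Wild type had a median Ank1 of 8.82 and a highest of 9.52. The log2 difference of Ank1 was 1.49 (SE 0.42, 2.81-fold, limma adjusted p = 0.0309), and that of Sptb was 1.38 (SE 0.43). Slc4a1 (probe set 10391649), the band 3 anion exchanger, read 13.35, 13.12, 11.17 and 13.20 against a wild-type range of 11.20 to 12.49. Its difference of 0.93 (SE 0.38) did not pass (limma adjusted p = 0.132). The remaining membrane genes had differences of 1.10 for the Kell blood group gene Kel, 1.26 for Epb42, 1.34 for Ermap, 1.46 for Rhd and 1.54 for Rhag, none of which passed. Pklr (probe set 10493382) read 9.54, 10.85, 9.48 and 9.88, so its replicate 3 did not stand apart, and it rose by 1.80 (SE 0.53, 3.49-fold, limma adjusted p = 0.0348). Bpgm read 11.67, 10.74, 8.85 and 10.96 against a narrow wild-type range of 9.38 to 9.87. Bpgm was above that range in 3 arrays and below it in replicate 3, and its difference of 0.94 (SE 0.38) did not pass (limma adjusted p = 0.130).

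**Figure D2:**
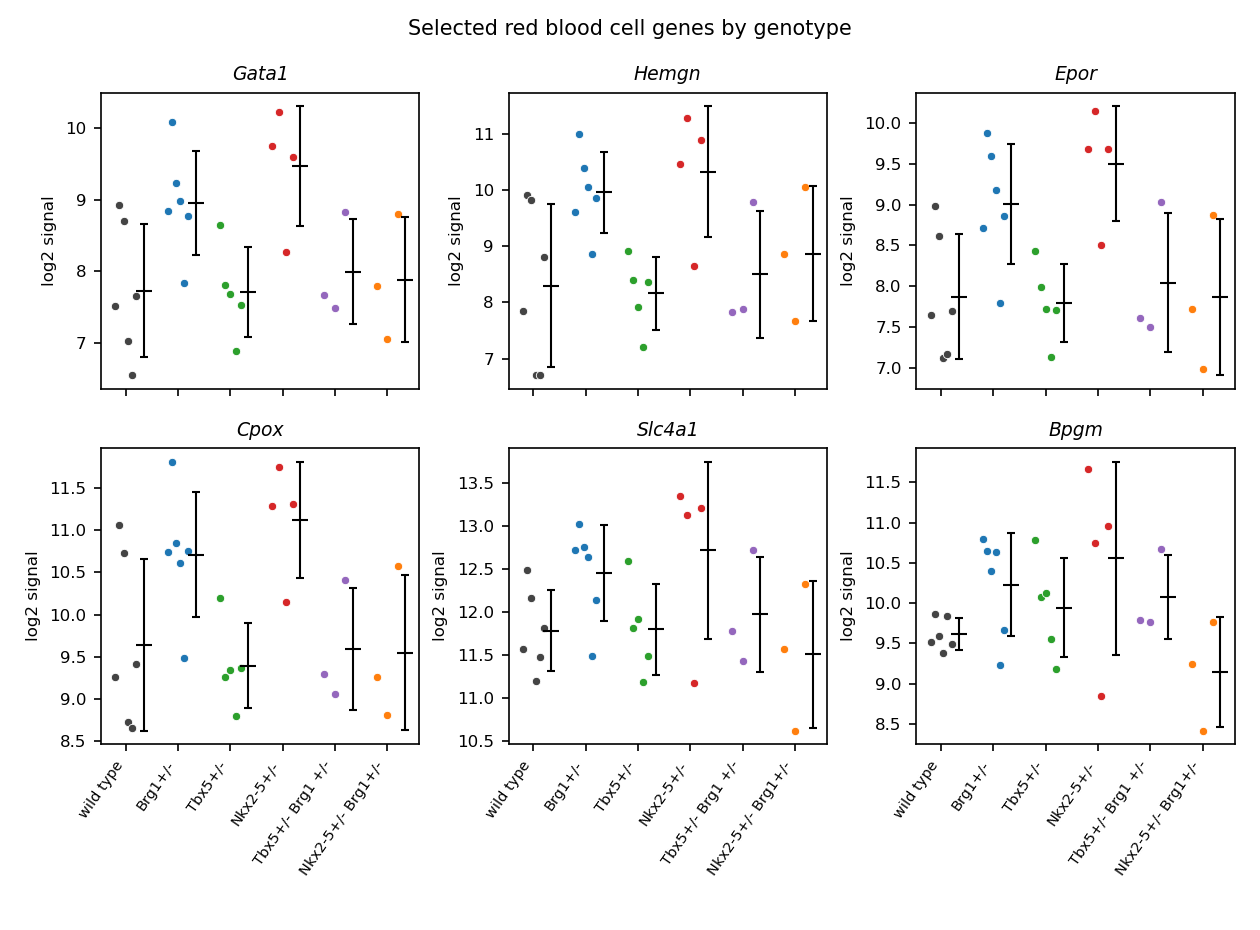
Log2 signal of 6 red blood cell genes in each array (points) by genotype, with the group mean and SD (black bar beside the points); the vertical axes differ between panels. Nkx2-5+/- replicates 1, 2 and 4 hold the 3 highest values of Slc4a1, and in the other panels an array of another genotype lies among or above them.

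The count of 14 rested on single arrays and on the fit. Leaving out Nkx2-5+/- replicate 3 raised it to 28, when 21.9% of all genes were called in either direction. Leaving out replicate 1 of that group gave 1 member, a smaller share than the 4.49% of all genes called. Leaving out replicate 2 or 4 gave 0 members, with 0.331% and 1.12% of all genes. Leaving out a wild-type array gave 5 for replicate 1, 22 for replicate 2, 2 for replicate 4 and 5 for replicate 5, beside 3.78%, 8.61%, 2.97% and 4.22% of all genes. A fit to the arrays of these 2 groups alone called 0 members and 0.0201% of all genes. A trended and robust prior gave 8 members (7.96% of all genes). The median difference of the 29 genes kept its direction over the 20 alternatives tried, between 1.03 and 1.80.

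Genes of the same pathways that are not members behaved in the same comparison as follows. Of 12 other membrane genes 6 rose and 1 fell, with Slc14a1, the urea transporter, higher by 1.39 (limma adjusted p = 0.0158) and Icam4, a red cell adhesion protein, higher by 1.37. The gene that fell was Mpp1, by 0.45 on the log2 scale. Of 17 other heme and iron genes 9 rose and 2 fell, and the smallest p-values were those of Flvcr1, a heme exporter, at 1.14 and Abcb6, a porphyrin transporter, at 1.05. Those that fell were Alas1, the form of the first heme enzyme used outside red cells, by 0.67 and Aco1, an iron sensor, by 0.27, both named after their values were seen. Of 26 other regulators 8 rose, among them Mafk, the small partner of Nfe2, at 0.60 and Jak2, the kinase below Epor, at 0.84. Of 19 other red cell enzymes and late genes 2 rose, Kcnn4, the red cell potassium channel, at 1.57 and the heme-regulated kinase Eif2ak1 at 1.03, and Aldoa, a glycolytic enzyme, fell by 0.52. Without Nkx2-5+/- replicate 3 the numbers that rose were 9, 12, 13 and 12 in these 4 lists, beside the 21.9% of all genes called in that setting. Globins are not members, and 3 embryonic ones had a probe set with a single symbol. The listed adult globins had no such probe set and so no value here. The embryonic Hbb-bh1 rose by 0.92 (limma adjusted p = 0.0440) and the embryonic Hbb-y differed by 0.17. Hbb-y lay between 14.03 and 14.47 in all 27 arrays, and whether its signal could rise further at that level was not tested. Hba-x averaged 13.95 in Nkx2-5+/- against 13.53 in wild type.

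Other cell types were read from their markers in the same arrays. Of 12 heart muscle markers 6 fell in Nkx2-5+/- against wild type, among them Casq2, a calcium store protein, which fell by 1.06, and Myl2, the ventricular light chain, which fell by 0.42, both named for their small p-values. The mean of those markers was 11.06 to 11.18 in Nkx2-5+/- replicates 1, 2 and 4 and 11.29 to 12.08 in the other 24 arrays. Without Nkx2-5+/- replicate 3, 10 of the 12 were lower, beside 21.9% of all genes called in either direction. Of 10 macrophage markers 3 fell, with Lyz2 lowest at -1.61 and a list median of -0.44. Lyz2 was also lowest in Nkx2-5+/- Brg1+/- against wild type, at -1.57, beside a list median of -0.21. The summary level of the list was 6.12 to 6.43 in Nkx2-5+/- replicates 1, 2 and 4 against 5.72 to 6.92 elsewhere. The 8 liver markers, which would mark neighbouring fetal liver, averaged 5.84 to 6.02 in the 3 arrays and 5.31 to 8.26 in the others, and limma called 0 of them, with 1 at an unadjusted p under 0.05. Wild-type replicate 3 held the highest liver average, 8.26, with a red blood cell gene average of 9.59. Next came Brg1+/- replicate 6 at 7.10, Nkx2-5+/- Brg1+/- replicate 3 at 7.03 and Tbx5+/- replicate 1 at 7.03. Their red blood cell gene averages were 9.68, 9.79 and 9.85, the last 2 being the highest of their groups. Of 5 platelet, 7 lymphoid and granulocyte, 6 blood progenitor and 7 endothelial markers, limma called 0, and 1, 1, 1 and 0 had an unadjusted p under 0.05. Over all genes, 22.3% had an unadjusted p under 0.05 in this comparison. Without Nkx2-5+/- replicate 3 the calls in these 4 lists were 3, 1, 2 and 0, beside the same 21.9% of all genes. Over the 27 arrays with group means removed, the average of the members correlated with that of the heart muscle markers at r = -0.72 and with that of the liver markers at r = 0.32. These markers come from the same libraries, and their part in the result was not tested.

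**Figure D3:**
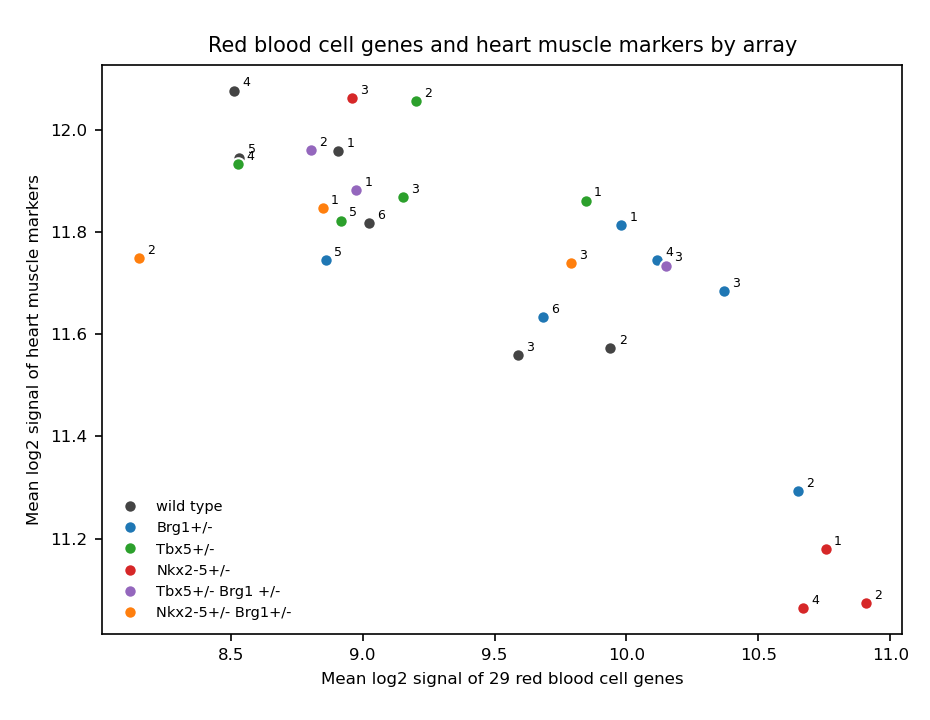
Each point is an array, coloured by genotype and numbered by replicate, with the average log2 signal of the 29 red blood cell genes on the horizontal axis and that of 12 heart muscle markers on the vertical axis. Nkx2-5+/- replicates 1, 2 and 4 and Brg1+/- replicate 2 lie together at lower right, and the library labelled Nkx2-5+/- replicate 3 lies at upper left.

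In Brg1+/- hearts the same genes read higher than in wild type in each of the 29 estimates, but none passed the adjusted test. limma called 0 members and 2 of all genes (0.01%), while 22 members and 1935 of all genes had an unadjusted p under 0.05. The median log2 difference was 0.84 and the estimates ran from 0.33 for Lmo2 to 1.66 for Hemgn. Hemgn in Brg1+/- had a lowest value of 8.85, a median of 9.95 and a highest of 11.001, against 6.70, 8.32 and 9.91 in wild type. Gata1 in Brg1+/- had 7.84, 8.91 and 10.08, against 6.54, 7.58 and 8.92. The groups overlapped in both genes, with Brg1+/- replicate 5 among the arrays inside the wild-type range. The difference of Gata1 was 1.23 (SE 0.40, limma adjusted p = 0.409) and that of Pklr was 1.28 (SE 0.47, limma adjusted p = 0.427). The count stayed at 0 under each of the 22 alternatives tried, and the median difference stayed between 0.69 and 1.001.

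In hearts labelled Tbx5+/- the red blood cell genes lay on both sides of wild type. limma called 0 members and 0% of all genes, and 0 members and 788 genes had an unadjusted p under 0.05. The median difference was 0.08, with 18 estimates above 0 and 11 below, from -0.25 (SE 0.42) for Cpox to 0.33 (SE 0.36) for Bpgm. Cpox in Tbx5+/- read 10.19, 9.27, 9.34, 8.80 and 9.36, inside the wild-type range of 8.66 to 11.06.

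In Tbx5+/- Brg1 +/- hearts limma also called 0 members and 0% of all genes, and 0 members and 873 genes had an unadjusted p under 0.05. The median difference from wild type was 0.22, and the estimates ran from -0.06 (SE 0.49) for Cpox to 0.50 (SE 0.50) for Trim10. This group holds the library whose Smarca4 signal goes against its label. Without it the median difference was -0.21.

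In Nkx2-5+/- Brg1+/- hearts, where the Nkx2-5 deletion was combined with that of Brg1, the red blood cell genes were not above wild type. limma called 0 members and 0.0351% of all genes, and 0 members and 1473 genes had an unadjusted p under 0.05. The median difference was -0.12, with 7 estimates above 0 and 22 below. Alas2 was at the low end, at -0.68 (SE 0.42, limma adjusted p = 0.726), with values of 10.61, 9.77 and 11.45 that reached below the wild-type range. Hemgn was at the high end, at 0.57 (SE 0.67, limma adjusted p = 0.861), with values of 8.87, 7.66 and 10.06. Gata1 read 7.79, 7.06 and 8.80 and Slc4a1 read 11.58, 10.63 and 12.33, both spanning the wild-type median. The 3 arrays differed more from each other than the group differed from wild type.

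**Figure D4:**
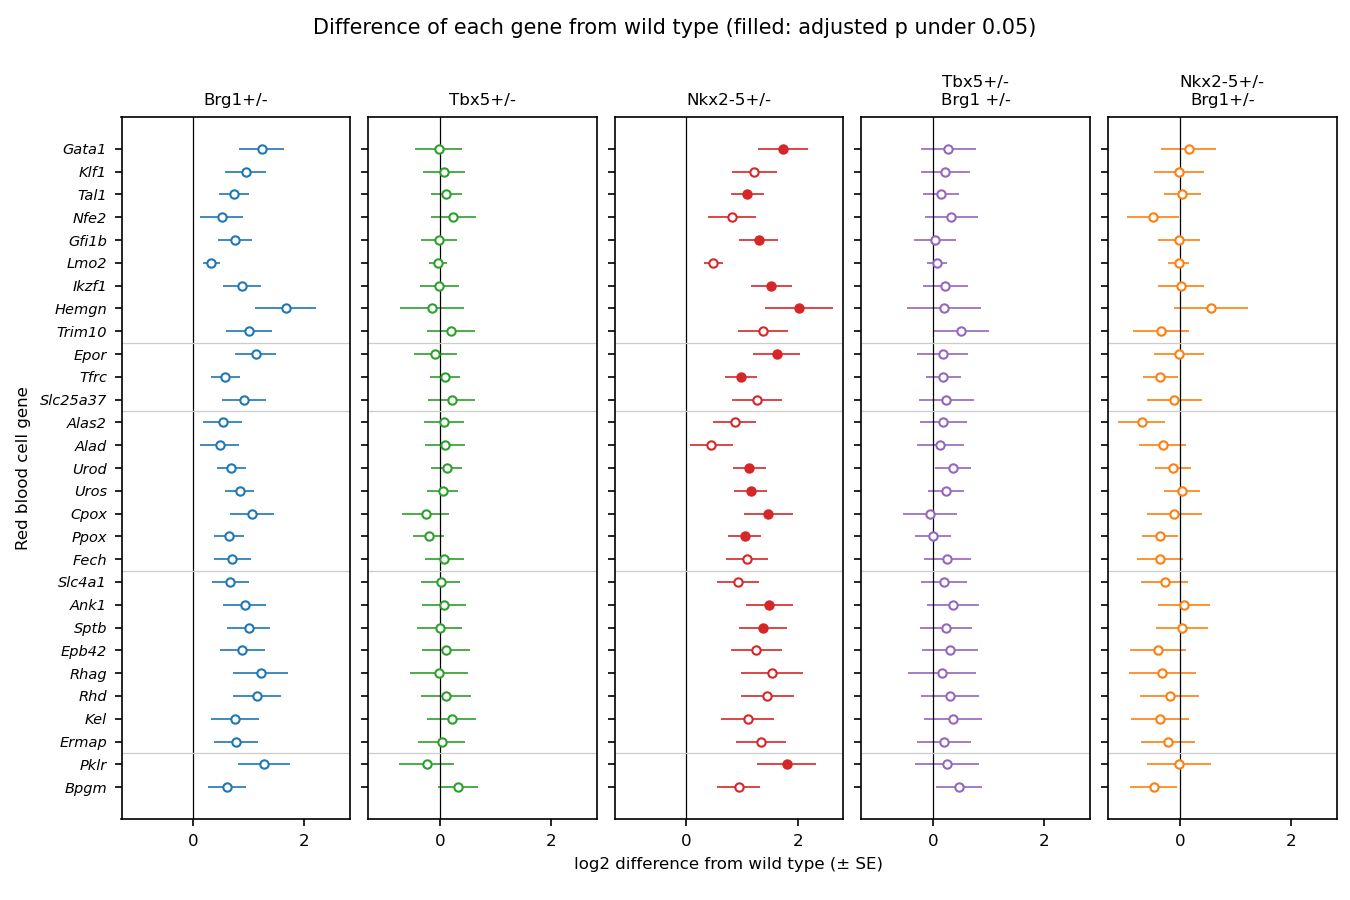
Log2 difference from wild type (horizontal axis, with SE) of each of the 29 red blood cell genes (vertical axis, in order of role) in the 5 mutant genotypes; filled points passed at a limma adjusted p under 0.05. The 14 filled points are all in Nkx2-5+/-, the 29 Brg1+/- points lie right of 0 without passing, and those of the remaining genotypes lie near 0.

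The difference made by the Brg1 deletion was set against itself in hearts with and without the Nkx2-5 deletion. Its 29 estimates lay above 0 without the Nkx2-5 deletion and below 0 with it, and none of them passed in either background. The interaction, which is Nkx2-5+/- Brg1+/- minus Nkx2-5+/- less Brg1+/- minus wild type, passed for 25 of the 29 genes, and each was negative. The 25 are 86.2% of the members, against 2.72% of all genes called lower and 2.23% called higher. They comprised 7 of 9 regulators, 3 of 3 growth and iron genes, 6 of 7 heme enzymes, 7 of 8 membrane genes and both red cell enzymes. The median interaction was -2.21 on the log2 scale, from -3.12 (SE 0.90, limma adjusted p = 0.0418) for Hemgn to -0.83 (SE 0.25, limma adjusted p = 0.0529) for Lmo2. Epor had the interaction -2.76 (SE 0.62, limma adjusted p = 0.0195) and Ppox, the next-to-last heme enzyme, had -2.04 (SE 0.44, limma adjusted p = 0.0189). Lmo2, Kel, Nfe2 and Alad did not pass.

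The means behind this can be read gene by gene. Gata1 averaged 7.73 ± 0.93 (SD, n = 6) in wild type and 8.96 ± 0.73 (SD, n = 6) in Brg1+/-. With the Nkx2-5 deletion it averaged 9.47 ± 0.84 (SD, n = 4) without and 7.89 ± 0.88 (SD, n = 3) with the Brg1 deletion. Gata1 thus averaged above wild type in either single mutant, which passed in Nkx2-5+/- and not in Brg1+/-, and close to wild type in the double mutant. Rhag, the Rh-associated glycoprotein of the ammonia channel family, averaged 9.18 ± 1.07 (SD, n = 6), 10.40 ± 0.79 (SD, n = 6), 10.73 ± 1.26 (SD, n = 4) and 8.87 ± 1.04 (SD, n = 3) in the same order of groups. Its interaction was -3.08 (SE 0.82). Tfrc averaged 10.34 ± 0.56 (SD, n = 6), 10.91 ± 0.55 (SD, n = 6), 11.32 ± 0.28 (SD, n = 4) and 9.99 ± 0.65 (SD, n = 3), with an interaction of -1.91 (SE 0.43).

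**Figure D5:**
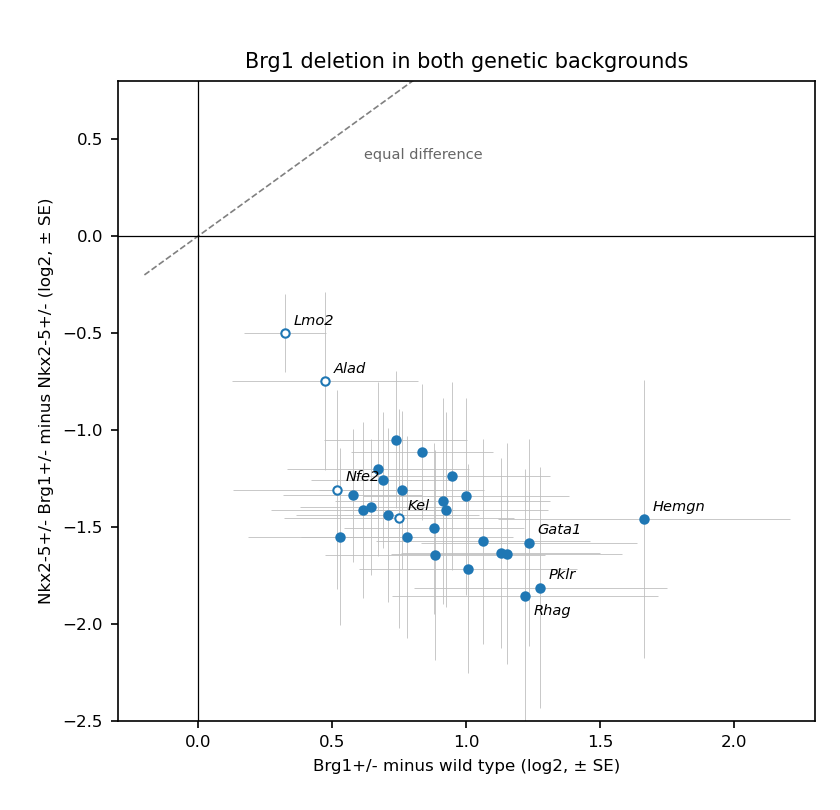
For each of the 29 red blood cell genes (points, with SE on both axes), the log2 difference made by the Brg1 deletion without (horizontal) and with (vertical) the Nkx2-5 deletion; filled points passed the interaction test and the dashed line marks equal differences. Every point lies right of 0 and below 0, and the open points are Lmo2, Alad, Nfe2 and Kel.

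The differences made by the Brg1 deletion, whose contrast this interaction is, did not pass by themselves. In Nkx2-5+/- Brg1+/- against Nkx2-5+/-, limma called 0 members and 0.0401% of all genes, although 27 members and 3063 genes had an unadjusted p under 0.05. The median difference was -1.41, from -1.86 (SE 0.66) for Rhag to -0.50 (SE 0.20) for Lmo2. Without Nkx2-5+/- replicate 3, 26 members and 11.6% of all genes passed, and without Nkx2-5+/- Brg1+/- replicate 3, 8 members and 1.79%. Array weights gave 28 members and 18.5% of all genes. In Nkx2-5+/- Brg1+/- against Brg1+/- limma called 0 members and 0.0201% of all genes, 23 members and 1729 genes had an unadjusted p under 0.05, and the median was -1.0. Array weights called 17 members and 6.88% of all genes there.

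The interaction count rested on few arrays. It fell to 0 when Nkx2-5+/- replicate 2 was left out, with 0.0702% of all genes called. It was also 0 without Nkx2-5+/- Brg1+/- replicate 1 or 2, with 0.0301% and 0.0401% of all genes. Without Nkx2-5+/- replicate 1 or 4 it was 11, with 3.14% and 2.81%. Without replicate 3 of that group, whose Smarca4 goes against the label, it was 28, with 16.2%. Leaving out Brg1+/- replicate 2 gave 13 and replicate 3 gave 15, beside 2.48% and 3.33% of all genes. Leaving out a wild-type array gave 16 for replicate 1, 13 for replicate 4 and 14 for replicate 5, beside 3.09%, 2.72% and 2.99%. A fit to the arrays of these 4 groups alone called 0 members and 0.125% of all genes, and a trended and robust prior called 13 and 4.76%. The median interaction stayed negative over the 29 alternatives tried, between -2.79 and -1.82.

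For Tbx5 the corresponding interaction called 0 members and 0% of all genes with limma, and 0 members and 606 genes had an unadjusted p under 0.05. Its median was -0.66 and it ran from -1.33 for Hemgn to -0.22 for Lmo2. Without the library labelled Tbx5+/- Brg1 +/- replicate 3, 1 of the 3 arrays of its group, the median was -1.11 and again 0 members passed. Adding the Brg1 deletion to Tbx5+/- called 0 members and 0% of all genes, with 0 members and 494 genes at an unadjusted p under 0.05 and a median of 0.18. Without the same library the sign turned, to a median of -0.23. Tbx5+/- Brg1 +/- against Brg1+/- called 0 members and 0% of all genes, with 3 members and 1626 genes at an unadjusted p under 0.05 and a median of -0.59, which was -1.02 without that library. Whether the interactions with Tbx5 and with Nkx2-5 differ was not tested.

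The single mutants can also be set against each other. Nkx2-5+/- exceeded Tbx5+/- in 13 of the 29 genes, which is 44.8%, against 3.45% of all genes called higher and 7.72% called lower. They were Gata1, Tal1, Gfi1b, Ikzf1, Hemgn, Epor, Urod, Uros, Cpox, Ppox, Ank1, Sptb and Pklr, and the Nkx2-5+/- arrays are those of the comparison with wild type. Hemgn differed by 2.17 (SE 0.63, limma adjusted p = 0.0257), Pklr by 2.04 (SE 0.55, limma adjusted p = 0.0164) and Ppox by 1.25 (SE 0.31, limma adjusted p = 0.0102). Leaving out an Nkx2-5+/- array gave 7 for replicate 1, 0 for replicate 2, 28 for replicate 3 and 3 for replicate 4, beside 7.25%, 3.42%, 22.8% and 5.13% of all genes. Leaving out Tbx5+/- replicate 3 gave 8 and replicate 4 gave 4, beside 8.27% and 6.66%. A trended and robust prior gave 8 members (11.3% of all genes). Brg1+/- against Tbx5+/- called 0 members and 0.0251% of all genes with limma, with 16 members and 2806 genes at an unadjusted p under 0.05 and a median of 0.77. Nkx2-5+/- against Brg1+/- called 0 members and 0.0201% of all genes, with 0 members and 1680 genes at an unadjusted p under 0.05 and a median of 0.37. Alad had an estimate below 0, at -0.03. Without Nkx2-5+/- replicate 3 the median was 0.88, with 0 members and 7.40% of all genes called. Without both arrays whose Smarca4 goes against the label, 3 members and 7.67% of all genes were called.

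The members differed among themselves along the second axis. Pklr, Hemgn, Cpox, Gata1 and Epor lay at one end of it, and Bpgm, Kel, Nfe2, Trim10, Epb42 and Alas2 at the other. The library labelled Nkx2-5+/- replicate 3 shows this within an array: Pklr was 9.48, near the top of the wild-type range of 6.86 to 9.59, while Bpgm was 8.85 and Nfe2 was 6.09, below the lowest wild-type values of 9.38 and 6.90. Wild-type replicate 5 was low among the wild-type arrays in Hemgn, at 6.70, but not in Bpgm, at 9.84. Wild-type replicate 4 was low in both, with Hemgn at 6.71 and the lowest wild-type Bpgm, at 9.38. In Nkx2-5+/- Brg1+/- replicate 3, Hemgn was 10.06, above all wild-type arrays, and Alas2 was 11.45, inside the wild-type range. This axis was found in these values and is given as a description.

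Genes outside the list with the most similar profile were named by their correlation with the average of the 29 members over the 27 arrays with group means removed. The 12 most alike were Tspan33 at r = 0.99, then Abcb10, Kcnn4, Slc43a1, Car2, Blvrb, Slc39a8, Slc6a9, Steap3, Add2, Ell2 and Pigq, the last at r = 0.98. Of these, 6 are on the lists of other red cell genes above, among them Abcb10, a mitochondrial transporter of red cells, and Add2, an adducin of the membrane skeleton. Tspan33, a tetraspanin, rose by 1.55 and Slc43a1, an amino acid transporter, by 1.21 in Nkx2-5+/- against wild type. Average levels of the lists correlated with the members at r = 0.99 for other heme and iron genes, 0.98 for other membrane genes, 0.93 for other enzymes and late genes, 0.91 for other regulators and 0.92 for the 3 globins. The platelet markers followed at 0.77, the blood progenitor markers at 0.41 and the macrophage markers at -0.02. Without the 2 arrays that lay farthest from the median of the members' average, these 3 values were 0.70, 0.28 and -0.31.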

How the data were processed

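Biotin-labelled RNA of 27 E11.5 mouse heart samples, extracted with Qiagen RNeasy Micro per the labels' protocols, was read on Affymetrix arrays. The values deposited by the authors are log2 signals of 28815 probe sets. The submitters' processing notes name RMA and Affymetrix Power Tools, without versions. A genome build is not given in the sources used here. RMA fits the arrays together and forces them to a common distribution, so a change shared by most genes would not show, and array medians lay between 6.18 and 6.33. The log2 signals were used as deposited.

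Probe sets were named through the platform annotation: 21780 carried 1 symbol, 1605 carried several and 5430 had no entry. Only the first kind was used, by the highest-mean probe set in the 998 genes that had more, giving 19935 genes, of which 19853 matched the reference table of GRCm38.p6 by gene identifier. Differences of log2 signal came from limma 3.58.1 (R 4.3.3) fitted with genotype means, all 27 arrays in a common fit (21 residual and 6.71 prior degrees of freedom), two-sided tests and Benjamini-Hochberg adjustment within a comparison over all genes. Genes were called at an adjusted p under 0.05. The fit was tested on simulated data. Groups came from the genotype label, and arrays carry no counts, so their number limits the precision.

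All listed members are reported in every comparison with wild type. From each other list up to 4 called genes with the smallest p could be named, and the 12 genes most like the members. The members and lists were chosen with earlier results of these data known. Alternatives were a further quantile normalization, equal array medians, removal of the genes of lowest mean, a trended and robust prior, array weights, a fit to just the groups compared, every probe set or a gene's average over its probe sets, a replicate block, and arrays left out. Correlations over arrays are descriptions without p. Motifs were searched in RefSeq start-site windows. Plots used matplotlib 3.10.9 (Python 3.11.15).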

Additional observations from a re-analysis of the deposited data

Results flagged for a closer look

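Dixon's criterion for a far value was applied to each red blood cell gene and to their average in the groups of 4 or more arrays. It marked 12 of 120. Chance marks about 1 in 20 of separate tests, but these 120 share arrays and genes that moved together. The count can therefore not be set against that rate. In 11 of the 12 the far value was that of the library labelled Nkx2-5+/- replicate 3. Its log2 signals were 7.82 for Tal1, 9.63 for Slc25a37, 10.60 for Alas2, 11.17 for Slc4a1, 8.53 for Ank1, 9.32 for Sptb, 8.88 for Epb42, 9.14 for Rhd, 8.27 for Kel and 9.34 for Ermap, and the average of the members was 8.96. Each was the lowest of its group. The remaining far value was a high Gfi1b of 8.73 in Tbx5+/- replicate 1.

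The difference made by the Brg1 deletion differed between hearts with and without the Nkx2-5 deletion for 25 genes, by the limma interaction test. Among the regulators the interaction was -2.81 for Gata1, -2.18 for Klf1, -1.79 for Tal1, -2.07 for Gfi1b, -2.39 for Ikzf1, -3.12 for Hemgn and -2.72 for Trim10. It was -2.76 for Epor, -1.91 for Tfrc and -2.28 for Slc25a37. Among the heme enzymes it was -2.08 for Alas2, -1.94 for Urod, -1.95 for Uros, -2.64 for Cpox, -2.04 for Ppox and -2.15 for Fech. Among the membrane genes it was -1.88 for Slc4a1, -2.34 for Ank1, -2.34 for Sptb, -2.53 for Epb42, -3.08 for Rhag, -2.79 for Rhd and -2.33 for Ermap. The red cell enzymes had -3.09 for Pklr and -2.03 for Bpgm. Nkx2-5+/- and Tbx5+/- hearts, set against each other, differed in 13 of the members by limma.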

How the results depend on the processing

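The direction of the median over the 29 genes was kept under the alternatives tried in Brg1+/-, in Nkx2-5+/- and in the Nkx2-5 by Brg1 interaction, and it changed sign in Tbx5+/- (-0.11 to 0.22), Tbx5+/- Brg1 +/- (-0.21 to 0.51) and Nkx2-5+/- Brg1+/- (-0.68 to 0.23) against wild type and in Tbx5+/- Brg1 +/- against Tbx5+/- (-0.23 to 0.46), where no member passed. Counts of called members moved far more. In Nkx2-5+/- against wild type the 14 became 8 with a trended and robust prior, 0 with the compared groups alone, 28 with array weights (18.8% of all genes called) and 28 without the 2 arrays whose Smarca4 goes against the label (21.8%), and ran from 0 to 28 with an array left out. In Nkx2-5+/- against Tbx5+/- the 13 became 8 with the trended prior, 28 with weights (22.0%) and 28 without the 2 arrays (22.9%), and ran from 0 to 28. The 25 of the Nkx2-5 by Brg1 interaction became 13 with the trended prior and 0 with the compared groups alone, and ran from 0 to 28 with an array left out. In Nkx2-5+/- Brg1+/- against Nkx2-5+/- the 0 became 28 with weights (18.5%) and 26 without the 2 arrays (11.9%), and ran from 0 to 26. Array weights gave 17 in Nkx2-5+/- Brg1+/- against Brg1+/- (6.88%) and 6 in Brg1+/- against Tbx5+/- (4.65%), where the compared groups alone gave 1 (0.150%), and Nkx2-5+/- against Brg1+/- gave 3 without the 2 arrays (7.67%). The cause of these shifts was not tested.

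The replicate numbers are not stated to pair samples: of 55 same-numbered pairs from different groups 18 had a correlation of their deviations over 0.1, with a median of 0.01. 8 of 27 arrays correlated best with their own number. With the replicate block the counts were 5 in Nkx2-5+/- against wild type (5.62% of all genes), 8 in Nkx2-5+/- against Tbx5+/- (9.51%), 3 in Nkx2-5+/- Brg1+/- against Nkx2-5+/- (2.07%) and 25 in the interaction (6.86%).

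Of 99 values of single genes, 8 of 2192 alternative values changed sign, all among genes that had not passed. Among the 2192 values 534 lost the call of the main fit, 39 gained a call and 1611 kept the outcome. Trim10 in Tbx5+/- Brg1 +/- was -0.016 without the 2 arrays. With an array left out Trim10 ran from -0.016 to 0.868 and Cpox from -0.467 to 0.23 in Tbx5+/- Brg1 +/-, Cpox ran from -0.452 to 0.031 in Tbx5+/-, and Hemgn ran from -0.034 to 1.168 in Nkx2-5+/- Brg1+/-. Groups of 3 to 6 arrays set the precision. Mean log2 levels of the members over the 27 arrays ran from 7.22 to 12.07, above the array medians of 6.18 to 6.33. Single values reached 5.88 for Nfe2 in Nkx2-5+/- Brg1+/- and 6.02 for Ikzf1 in wild type, below those medians.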
